A study of Mus musculus with 8 samples.

Results

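The complement components examined here are 9 genes, C1qa, C1qb, C1qc, C1ra, C2, C3, C4b, Cfb and Serping1, found by their symbols among the 24552 genes of the raw count table. All 9 were counted in every library and all 9 were among the 11211 genes with enough counts to be tested. They were measured by 3′ mRNA sequencing (QuantSeq FWD, an oligo-dT primed method that reads near the end of each transcript) in whole exorbital lacrimal glands (LG) of female C57BL/6J mice. Mice of the first group (4 libraries) were fed ad libitum (AL), and those of the second (4 libraries) were placed on 40% calorie restriction (CR). Both diets ran for 4 months, from 6 to 7 months of age until 10 to 11 months. The CR ration was a daily evening meal, whereas AL mice could eat at any time. The study drew its mice from 2 cohorts, and the labels do not say to which cohort a library belongs. Nor do they name the animal behind each library, so the p-values below measure the spread between these 8 samples.

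Complement is a cascade of plasma and tissue proteins that tags microbes, debris and dying cells for removal. In the classical pathway C1q binds a target, its partner C1r activates C1s, C1s cleaves C4 and C2, and the resulting convertase cleaves C3. The alternative pathway amplifies the deposition of C3 with factor B, factor D and properdin, and both routes end in the membrane attack complex. Liver makes most of the plasma pool, while C1q comes largely from macrophages, and C3 and factor B are induced by inflammatory cytokines in many epithelia and stromal cells. C1 inhibitor, the product of Serping1, holds C1r and C1s in check.

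Whole-gland features that touch these genes are given first. Library totals ran from about 12051900 to 22156500 counts in AL and from 13720100 to 19310300 in CR, so that the limit of 3 counts lay between 0.152 and 0.231 CPM, the count relative to a library total scaled by relative log expression (RLE). LG secretory transcripts were abundant in both diets, with mean levels of 22841 CPM in AL and 27472 CPM in CR for Pip, and 786 and 764 CPM for Lpo. The log2 fold change of Pip was 0.27 (-0.012 without CR 1 to 0.44 without AL 1). That of Lpo was -0.041 (-0.16 without AL 4 to 0.195 without AL 1). The 8 genes of the LG list were not uniform: Sox10 rose (log2 fold change 2.13, edgeR adjusted p = 0.00746), Pigr fell by 0.95 (adjusted p = 0.0380, up to 0.121 with 1 library left out), and Car6 had 1.68 (adjusted p = 0.115). Transcripts typical of the parotid gland, which lies next to the exorbital LG, summed to 239 to 23594 CPM in AL and to 17949 to 231295 CPM in CR. The library with the lowest parotid sum of its diet (AL 4, CR 4) was also lowest of that diet for Sox10 and Car6. The order of the other libraries differed, and the part of parotid tissue in these genes was not tested. With the parotid transcript score as a covariate the 9 members had lower values in CR, from -1.75 to -0.06 on the log2 scale, but 1 of 9 had an unadjusted p under 0.05, against 4.60% of all genes. This score differs between the diets, so the fit has little information to separate them, and the SE grew from 0.40 to 0.88 for C1qa and from 0.38 to 0.81 for C3. Of 6 hepatocyte markers, Ttr alone had enough counts to be tested and rose (log2 fold change 4.61, edgeR adjusted p = 0.0317, up to 0.109 with 1 library left out), while the defining marker Alb was at 0 in all 4 AL libraries and at most at 0.618 CPM in CR, and Serpina1a was at 0 throughout. One library stood apart for the members: AL 3 was the highest of the 8 libraries in 8 of the 9 genes, and each member's fold change is therefore also given without it. For other genes the range over the 8 fits with 1 library left out is given in the following cases. The range ended a call, turned a direction or moved the value by more than 1.5 times. Lists described by a median are also given without AL 3.

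None of the 9 complement components passed the edgeR test used here, and all 9 had a lower level in CR than in AL. A gene was called when its Benjamini-Hochberg adjusted p was under 0.05 and its change was at least 1.5-fold in the edgeR quasi-likelihood test. By this rule 0 of 9 members were called lower, against 0.785% of all 11211 genes tested, and 0 of 9 were called higher, against 1.20%. At an unadjusted p under 0.05, 7 of the 9 members were lower in CR, and 8.10% of all genes met the same criterion. DESeq2, with which the study computed its fold changes and p-values, called 3 members lower on the same counts, C1ra, C3 and Serping1, and 2.83% of all genes. The median log2 fold change of the 9 members, CR minus AL, was -0.85, with a range from -1.42 for Cfb to -0.33 for C4b, and the median over all genes tested was 0.01. Every CR library lay below every AL library for 1 of 9 members, C1ra, and for 5.20% of all genes. Adjusted p-values ran from 0.0987 for Serping1 to 0.783 for C4b.

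**Figure D1:**
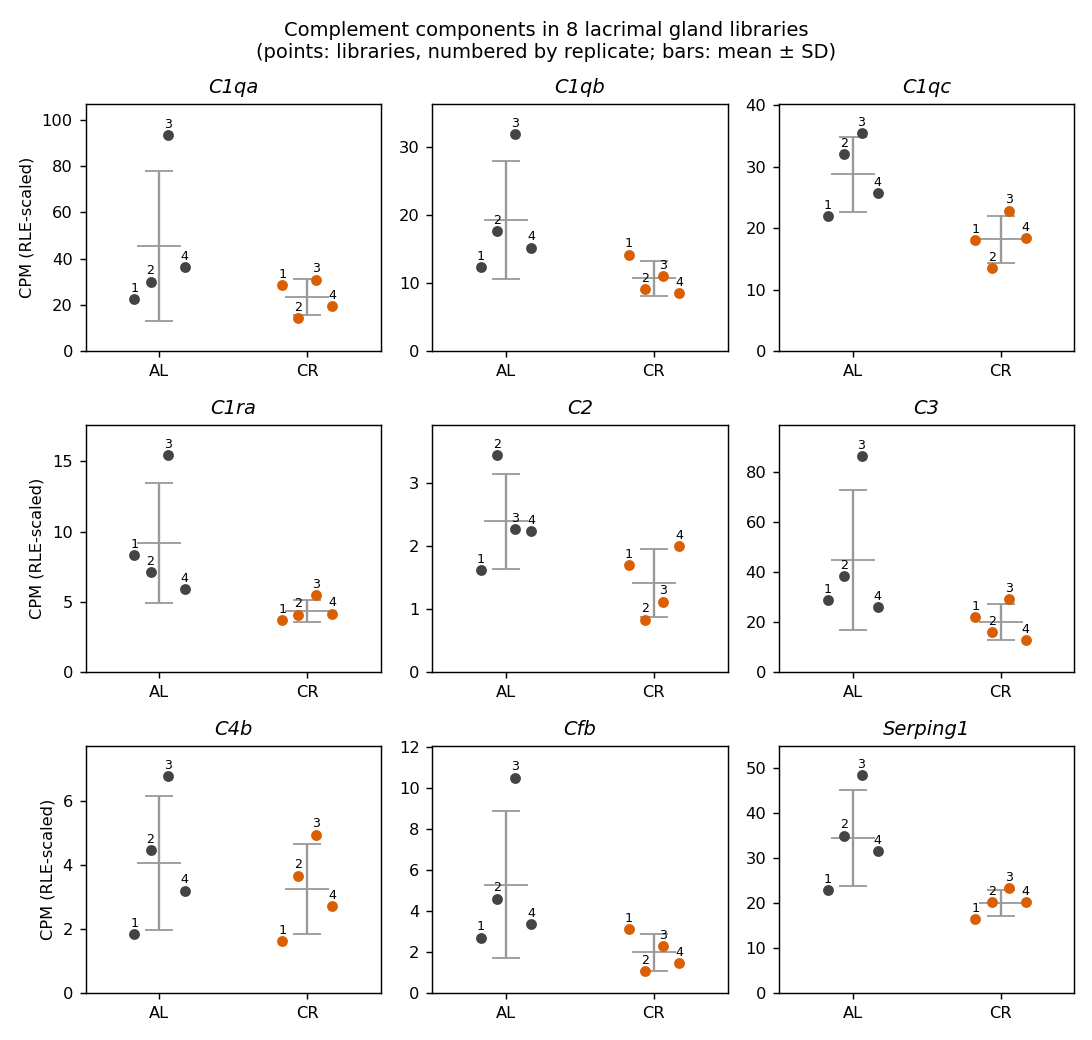
Level of each complement component in CPM (vertical axis, linear, starting at 0) in the 4 AL and 4 CR libraries; points are libraries numbered by replicate and bars give the mean ± SD. AL 3 is the top point in every panel except C2, and the points of the 2 diets are fully separate only for C1ra, where CR ends at 5.50 CPM and AL begins at 5.93 CPM.

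The plot of levels by diet shows the recognition subunits first. C1qa, C1qb and C1qc encode the 3 chains of C1q, the molecule that starts the classical pathway, and they lie side by side on the minus strand of chromosome 4 (GRCm38, GENCODE vM21). C1qb occupies 136880129 to 136886187, C1qc 136889804 to 136893065 and C1qa 136895917 to 136898803, with 3617 bases between C1qb and C1qc and 2852 bases between C1qc and C1qa. RefSeq promoter windows (build GRCm38.p6, 250 bases before to 50 bases after the annotated start) are shown for C1qb and C1qc, the neighbours for which one was given. After subtraction of the diet mean, the log2 CPM of this pair correlated at r = 0.67 over the libraries. That was the lowest of the C1q pairs, against 0.90 for C1qa with C1qb and 0.79 for C1qa with C1qc. The C1qb window is chr4:136886151-136886450 and the C1qc window chr4:136892865-136893164, both on the minus strand and written 5′ to 3′, with motif matches in capitals.
C1qb: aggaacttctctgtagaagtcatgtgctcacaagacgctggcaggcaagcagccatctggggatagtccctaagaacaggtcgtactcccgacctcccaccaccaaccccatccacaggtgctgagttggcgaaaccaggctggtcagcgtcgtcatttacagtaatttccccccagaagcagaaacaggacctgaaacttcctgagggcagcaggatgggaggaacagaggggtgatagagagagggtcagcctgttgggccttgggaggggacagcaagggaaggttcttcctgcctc
C1qc: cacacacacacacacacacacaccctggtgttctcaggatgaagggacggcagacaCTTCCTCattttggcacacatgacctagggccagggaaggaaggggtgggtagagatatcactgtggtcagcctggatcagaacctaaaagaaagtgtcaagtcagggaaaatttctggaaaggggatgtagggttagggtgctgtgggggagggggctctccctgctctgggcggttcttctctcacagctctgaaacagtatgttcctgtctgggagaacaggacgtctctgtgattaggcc
Of the 6 motifs searched on both strands, the C1qc window held GAGGAAG, a PU.1 type motif, once on the other strand at position -194, and the C1qb window held none. PU.1 is a transcription factor of the myeloid lineage, and 13.6% of all 32851 promoter windows contain these letters. Matches here and below describe the sequence and mark no measured binding, and no match overlapped another.

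C1qa was measured at 22.3, 30.1, 93.3 and 36.3 CPM in AL 1 to 4 and at 28.4, 14.1, 30.9 and 19.5 CPM in CR 1 to 4. The groups overlapped, since 2 CR libraries lay above AL 1, and AL 3 was more than 2 times any other library. Mean levels were 45.5 ± 32.4 CPM in AL and 23.2 ± 7.81 CPM in CR (SD, n = 4 each). The log2 fold change was -0.97 (SE 0.40, edgeR adjusted p = 0.243), and it was -0.35 without AL 3.

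C1qb, the second chain, was measured at 12.3, 17.7, 32.0 and 15.3 CPM in AL and at 14.2, 9.17, 11.1 and 8.49 CPM in CR. CR 1 alone reached into the AL range. The means were 19.3 ± 8.72 and 10.7 ± 2.56 CPM, a log2 difference of -0.85 (SE 0.29, edgeR adjusted p = 0.156). Leaving out AL 3 brought this to -0.50.

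C1qc varied least within AL among the C1q genes, with 22.0, 32.0, 35.5 and 25.7 CPM in AL and 18.0, 13.5, 22.9 and 18.4 CPM in CR. Here CR 3 was the only CR library above the lowest AL library. The means were 28.8 ± 6.10 and 18.2 ± 3.82 CPM. In the edgeR fit the log2 fold change was -0.66 (SE 0.21, adjusted p = 0.128), and without AL 3 it was -0.55, so this chain depended less on that library than C1qa did.

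The proportions of the 3 chains were not fixed. The ratio of C1qa to C1qc counts was between 0.939 and 1.58 in 7 libraries and 2.63 in AL 3. The ratio of C1qc to C1qb was lowest, at 1.11, in AL 3 and highest, at 2.16, in CR 4. These ratios compare the same pair of genes between libraries, and their size carries no information on the amounts of the chains because 3′ counts differ in capture between genes.

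C1ra, C2 and C4b encode the steps between C1q and C3. C1r is the protease that activates C1s inside the C1 complex, and its gene C1ra (chromosome 6, 124512405 to 124523443, plus strand) was the member with the cleanest separation. Its promoter window is chr6:124512371-124512670 on the plus strand and is shown because C1ra was the only member whose groups did not overlap.
C1ra: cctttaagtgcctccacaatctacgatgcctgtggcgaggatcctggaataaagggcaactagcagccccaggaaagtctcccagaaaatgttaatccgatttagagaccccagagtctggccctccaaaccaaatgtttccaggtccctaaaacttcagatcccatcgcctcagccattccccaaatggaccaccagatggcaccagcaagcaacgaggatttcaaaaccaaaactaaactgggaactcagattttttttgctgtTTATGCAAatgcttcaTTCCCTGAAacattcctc
In capitals are TTGCNNAA (C/EBP type, at +17 on the other strand, in 10.8% of all windows) and TTCNNNGAA (STAT type, at +33, in 8.30% of all windows). C/EBP and STAT proteins are transcription factors of the acute phase and cytokine responses. C1ra was measured at 8.31, 7.11, 15.4 and 5.93 CPM in AL and at 3.67, 4.08, 5.50 and 4.16 CPM in CR. All 4 CR libraries were below all 4 AL libraries, for which the exact two-sided permutation test on log2 CPM can only give its smallest p, 0.0286. The same exact permutation test gave p between 0.0571 and 0.60 for the other 8 members. The means were 9.20 ± 4.27 and 4.36 ± 0.795 CPM, and the log2 fold change was -1.07 (SE 0.31, edgeR adjusted p = 0.104), or -0.71 without AL 3. Near its 3′ end 26.8% of 75-base windows also occur in C1rb, a near copy that was listed at 0 in all libraries, so part of its reads could have been left unassigned.

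C2, the protease that joins C4 in the classical C3 convertase, had the lowest counts of the 9, between 14 and 56 reads per library. It was measured at 1.62, 3.43, 2.26 and 2.23 CPM in AL and at 1.70, 0.828, 1.11 and 2.0 CPM in CR. This was the one member that peaked in AL 2, and AL 1 lay within the CR range. The means were 2.38 ± 0.758 and 1.41 ± 0.533 CPM. The log2 fold change of -0.76 (SE 0.42, edgeR adjusted p = 0.409) was -0.79 without AL 3.

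C4b encodes C4, which is cleaved by C1s and deposited on the target. It showed no separation of the diets, with 1.85, 4.47, 6.77 and 3.19 CPM in AL and 1.63, 3.67, 4.95 and 2.72 CPM in CR. The means of 4.07 ± 2.09 and 3.24 ± 1.41 CPM differed by less than either SD. The log2 fold change was -0.33 (SE 0.43, edgeR adjusted p = 0.783), and without AL 3 it turned to 0.023. C4b shares 12.3% of the 75-base windows near its 3′ end with C4a, which had at most 7 counts in any library.

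C3 and Cfb, which together form the convertase of the alternative pathway, had the largest log2 differences of the set with all 8 libraries. Without AL 3 the order was Cfb at -0.86, C2 at -0.79, C1ra at -0.71 and C3 at -0.65. C3 is the protein on which all complement routes meet, and its gene lies on chromosome 17 (57203970 to 57228136, minus strand). Its promoter window, chr17:57228087-57228386 on the minus strand, is shown because C3 is an inducible member with a large difference between the diets.
C3: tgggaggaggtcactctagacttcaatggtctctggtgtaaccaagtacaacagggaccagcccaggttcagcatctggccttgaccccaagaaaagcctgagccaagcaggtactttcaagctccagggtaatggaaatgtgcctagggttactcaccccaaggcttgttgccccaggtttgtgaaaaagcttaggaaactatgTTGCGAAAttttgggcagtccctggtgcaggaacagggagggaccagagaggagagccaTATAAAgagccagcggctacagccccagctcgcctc
The capitals mark TTGCNNAA at -45, found in 10.8% of all windows, and TATAAA at +15 relative to the annotated start, found in 13.6%. Neither GAAANNGAA (interferon response type, 8.56% of all windows) nor GGANTTTCC (NF-kB type, 1.25%) occurred in any of the 4 windows printed. C3 was measured at 28.6, 38.4, 86.2 and 25.9 CPM in AL and at 21.8, 15.9, 29.1 and 12.6 CPM in CR. CR 3 lay above 2 of the AL libraries, and the other CR libraries lay below all 4. The means were 44.8 ± 28.1 and 19.9 ± 7.22 CPM, so that the AL mean was 2.25 times the CR mean. Its log2 fold change was -1.17 (SE 0.38, edgeR adjusted p = 0.132), and -0.65 without AL 3.

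Cfb encodes factor B, the protease of the alternative C3 convertase. It was measured at 2.69, 4.60, 10.5 and 3.34 CPM in AL and at 3.11, 1.06, 2.29 and 1.44 CPM in CR. CR 1 was the only CR library within the AL range. The means were 5.28 ± 3.56 and 1.98 ± 0.912 CPM, a 2.67-fold difference, on 18 to 144 reads per library. The log2 fold change was -1.42 (SE 0.48, edgeR adjusted p = 0.149), and it was -0.86 without AL 3.

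C2, Cfb and C4b are neighbours in the class III region of the major histocompatibility complex on the minus strand of chromosome 17. Cfb (34856374 to 34862518) ends 86 bases from C2 (34862604 to 34898265), and C4b (34728380 to 34743882) lies 112 kb away. The annotated readthrough gene Gm20547 shares 60.6% of the 75-base windows near the 3′ end of Cfb and 23.7% of those of C2, and how reads in such stretches were assigned is not given in the sources used here. The other genes of that region mostly had higher values: 2 of the 11 neighbours tested had a lower value in CR, and their median log2 fold change was 0.21. None of the 11 was called, where 0.785% of all genes were called lower and 1.20% higher. Without AL 3, 1 of 11 was lower and the median was 0.35.

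Serping1, the C1 inhibitor gene (chromosome 2, 84765387 to 84775444, minus strand), had the smallest adjusted p of the 9. It was measured at 22.9, 35.0, 48.5 and 31.5 CPM in AL and at 16.4, 20.3, 23.4 and 20.2 CPM in CR. Only CR 3 exceeded the lowest AL library, by 23.4 against 22.9 CPM. The means were 34.5 ± 10.6 and 20.1 ± 2.86 CPM. The edgeR log2 fold change was -0.78 (SE 0.22, adjusted p = 0.0987), and -0.58 without AL 3. The inhibitor and the C1 components lay on the same side, with C1ra lower by a log2 value of -1.07 and the C1q chains by -0.97 to -0.66.

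**Figure D2:**
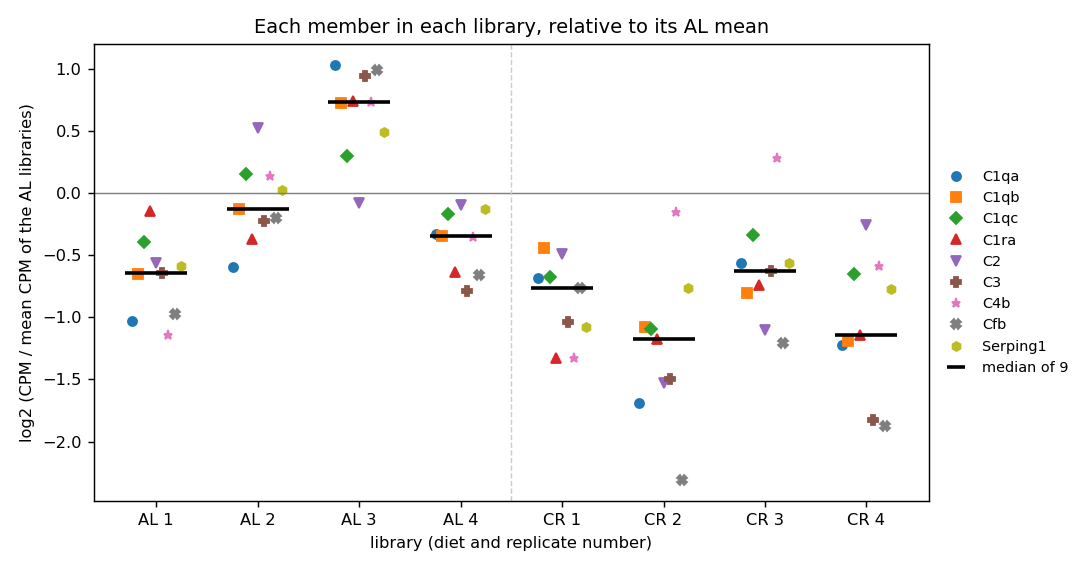
Each of the 9 genes in each library as log2 of its CPM over its own AL mean (vertical axis, log2 scale); symbols are genes and black bars are the median of the 9. The median bar is at 0.73 in AL 3, between -0.65 and -0.12 in the other AL libraries and between -1.17 and -0.62 in CR.

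Per library, the median of the 9 genes relative to their AL means was -0.65, -0.12, 0.73 and -0.34 in AL 1 to 4, and -0.76, -1.17, -0.62 and -1.14 in CR 1 to 4. The ranges of the diets thus met, with CR 3 at the level of AL 1, as the plot of members by library shows. Added together, the members took 123, 173, 330 and 149 CPM in AL and 109, 82.7, 131 and 89.5 CPM in CR. CR 2 was below every AL library for 8 of the 9 members, CR 4 for 7, CR 1 for 5 and CR 3 for 4. The lowest of all 8 libraries was CR 2 for 4 members, CR 1 for 3 and CR 4 for 2.

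**Figure D3:**
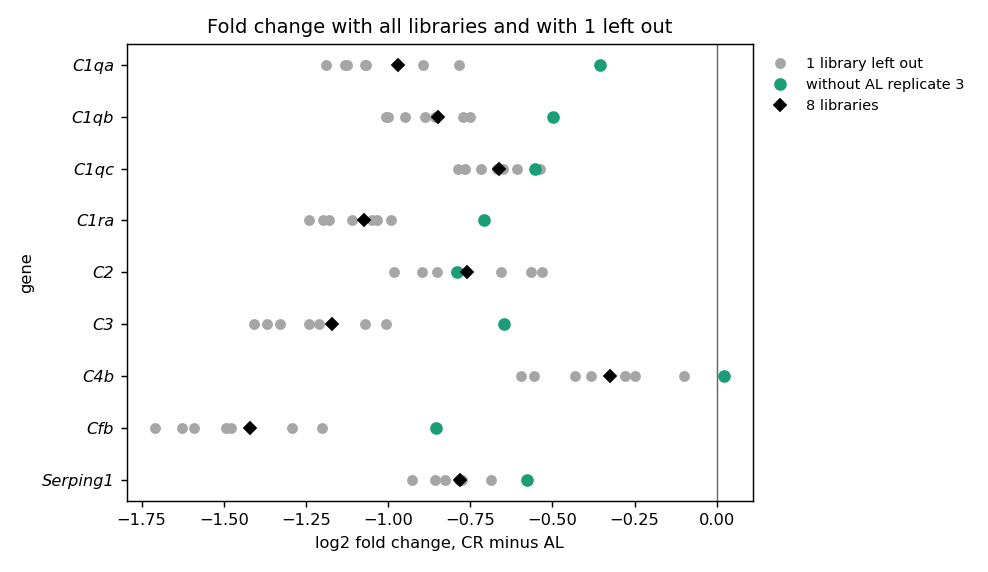
Log2 fold change, CR minus AL (horizontal axis, log2 scale), of each member with all 8 libraries (black diamonds) and with 1 library left out in turn (grey points; green, without AL 3). The green points are the ones nearest to 0 for 7 of the 9 genes, and C4b crosses 0 to 0.023.

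Leaving out 1 library at a time moved the median of the members between -1.0 and -0.58, the latter without AL 3, as the plot of fold changes with 1 library left out shows. Without AL 3, 4 of 9 members had an unadjusted p under 0.05 (C1qc, C1ra, C3 and Serping1), against 6.14% of all genes, and 8 of 9 were lower in CR. No member was called in the edgeR test in any of the 8 fits with 1 library left out. In those fits 0.22% to 2.17% of all genes were called lower.

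Macrophage markers were examined beside the C1q genes. Of 18 macrophage markers that include no C1q gene, 17 were tested, 16 had a lower value in CR and 1 was called, where 0.785% of all genes were called lower, and the median log2 fold change was -0.81. Lyz2, lysozyme of myeloid cells, fell by 1.48 on the log2 scale (edgeR adjusted p = 0.0312), from 18.0 to 6.44 CPM. Cd68, a lysosomal protein of macrophages, was at 13.9 CPM in AL and 6.59 CPM in CR (log2 fold change -1.08, edgeR adjusted p = 0.186), and the surface marker Adgre1 was at 6.00 and 2.58 CPM (-1.21, adjusted p = 0.128). Against this, Csf1r, the receptor for the macrophage growth factor, had a log2 value of -0.43, and Cd163, a scavenger receptor of resident macrophages, one of 0.19. Without AL 3, 14 of the 17 were lower, 0 were called and their median was -0.53. With 1 library left out in turn the edgeR adjusted p of Lyz2 reached 0.116. The log2 value ranged from -1.31 to -0.60 for Cd68 and from -1.41 to -0.76 for Adgre1, each nearest to 0 without AL 3. It ranged from -0.65 to 0.0012 for Csf1r, the latter without AL 3, and from -0.19 without CR 1 to 0.51 without CR 4 for Cd163.

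**Figure D4:**
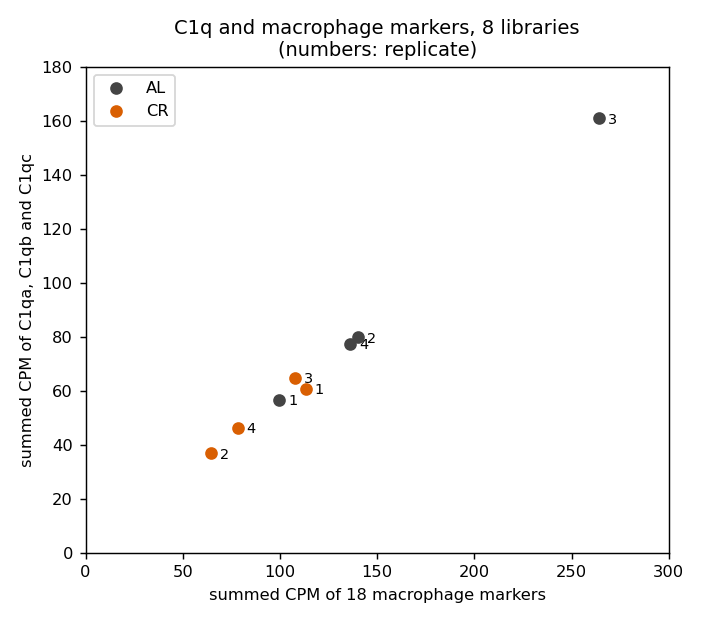
Summed CPM of C1qa, C1qb and C1qc (vertical axis) against the summed CPM of 18 macrophage markers (horizontal axis) in the 8 libraries, numbered by replicate. Both sums rise together, AL 3 lies far out at 161 and 264 CPM, and AL 1 lies among the CR libraries.

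The 3 C1q genes together gave 56.6, 79.8, 161 and 77.3 CPM in AL and 60.6, 36.8, 64.9 and 46.3 CPM in CR. The macrophage markers summed to 99.6, 140, 264 and 136 CPM in AL and to 113, 64.5, 108 and 78.3 CPM in CR. As the plot of C1q against macrophage markers shows, the ratio of the sums stayed between 0.535 and 0.609 in all 8 libraries, 0.568 to 0.609 in AL and 0.535 to 0.602 in CR. The C1q genes thus differed between libraries by about as much as macrophage markers did, and in whole tissue fewer macrophages and less C1q RNA per macrophage cannot be told apart.

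The tested genes other than the 9 members were then ranked, out of 11211 in all, by their likeness to the mean of the C1q genes. Likeness was the Pearson correlation over the 8 libraries of log2 CPM after subtraction of the diet mean, and the points share library, depth and the strong leverage of AL 3. Cd68 came first with r = 0.988 (0.979 without the 2 libraries farthest from the median), followed by Pea15a (0.982), Apoe (0.981), Lgals3 (0.979) and Tmem176b (0.976). Among the other members Cfb was nearest to C1q, with r = 0.966, and it kept 0.942 without those 2 libraries. C3 had r = 0.893, and 0.779 without them. For Serping1 and C4b the values of 0.734 and 0.555 dropped to -0.05 and -0.13, and for C1ra 0.685 dropped to 0.395 (Spearman's rho 0.381 over the 8). C2 had 0.301, and 0.280 without those libraries. C4b and Serping1 were closest to each other, with r = 0.949. Outside the members, the 5 genes most like C3 were Mrpl58 (0.988), Shisa5 (0.980), Pum3 (0.975), Mier1 (0.975) and Ier3 (0.975), none of which is a complement gene.

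Fibroblasts make C1r, C1s, C3, C4 and C1 inhibitor in many tissues, and their markers were examined for that reason. Of 13 tested, 12 had a lower value in CR and 2 were called, Col1a1 (log2 fold change -2.50, edgeR adjusted p = 0.0016) and Col3a1 (-2.79, adjusted p = 0.000672), with a median of -0.96, where 0.785% of all genes were called lower. Without AL 3, 11 of 13 were lower, the same pair of genes was called and the median was -0.66. The abundant fibroblast transcripts Dcn and Gsn had log2 values of 0.22 (0.087 to 0.31 with 1 library left out) and -0.25 (-0.35 to -0.089), and the list summed to 287 to 444 CPM in AL and to 267 to 329 CPM in CR. The part of fibroblasts in the levels of C1ra, C3, C4b and Serping1 was not tested.

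Among markers of other immune cells, those of B and T cells were sparse. The 6 B cell markers summed to 2.53 to 12.1 CPM in AL and to 0.424 to 1.28 CPM in CR, and the 1 tested, Cd22, had a log2 fold change of -2.99 (edgeR adjusted p = 0.138), or -4.61 (adjusted p = 0.0267) without CR 4. Of 5 T cell markers in the table, 1, Cd8a, had enough counts to be tested, with a log2 value of -0.91. The plasma cell markers summed to 121 to 269 CPM in AL and to 105 to 299 CPM in CR. Of 4 tested, 2 had a lower value (3 without AL 3) and 0 were called, where 0.785% of all genes were called lower. Jchain had -1.18 (edgeR adjusted p = 0.120, DESeq2 adjusted p = 0.0346) and Mzb1 -1.65 (0.222 and 0.111). Xbp1 had 0.14 (-0.40 without CR 4 to 0.71 without AL 4) and Derl3 0.21 (-0.0031 without CR 4 to 0.33 without CR 3). The part of B, T and plasma cells in the complement levels was not tested.

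The rest of the complement system was described from a list of 47 genes, all in the count table. Of these, 10 were at 0 in every library, 20 had too few counts to be tested and 17 were tested. None was called, against 0.785% of all genes called lower and 1.20% called higher. At an unadjusted p under 0.05, 4 of the 17 were lower, against 8.10% of all genes, and 1 was higher, against 8.62%. In all, 14 of the 17 had a lower value in CR and their median log2 fold change was -0.48. Without AL 3 these became 13 of the 17 and -0.29. DESeq2 called C1s1 and Itgax lower.

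**Figure D5:**
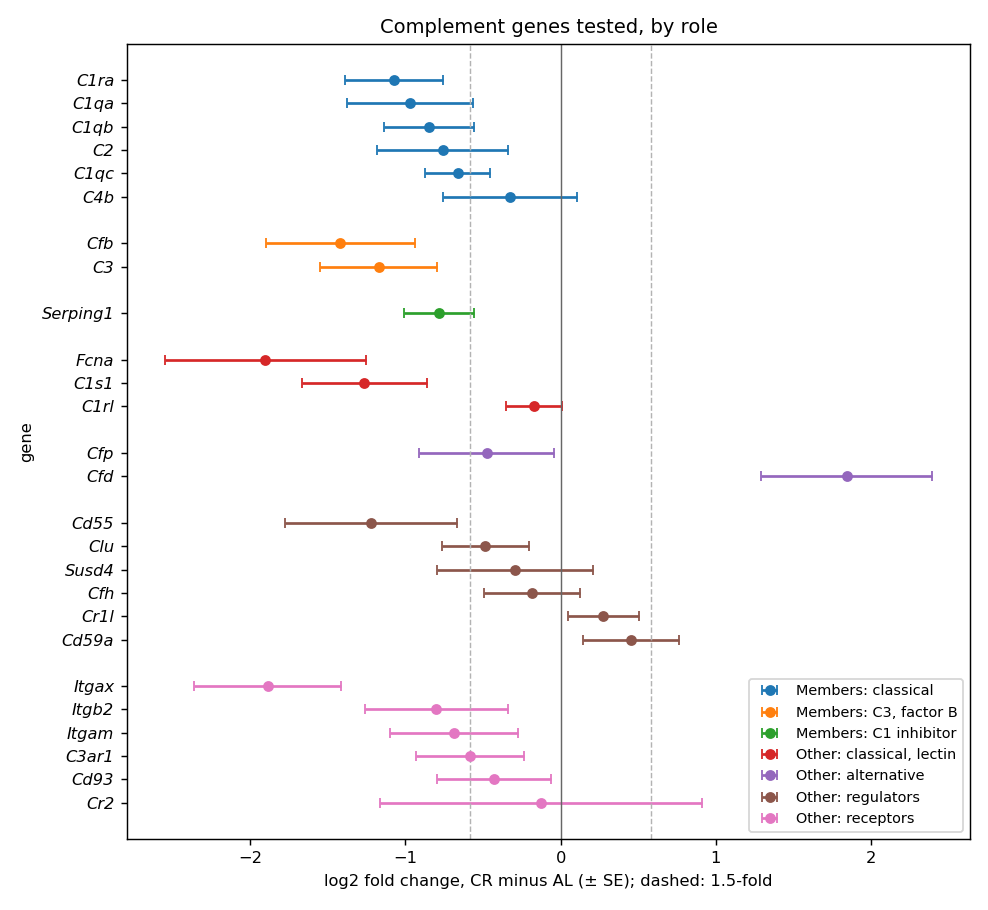
Log2 fold change, CR minus AL, with its SE (horizontal axis, log2 scale) for the 9 members and the 17 other complement genes tested, grouped by role; dashed lines mark 1.5-fold. All 9 members and 14 of the other 17 lie left of 0. Right of 0 lie Cfd at 1.84, Cd59a at 0.45 and Cr1l at 0.27.

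C1s1, whose product is the partner protease of C1r, was at 2.08, 8.03, 4.00 and 5.98 CPM in AL and at 1.91, 2.42, 1.48 and 2.55 CPM in CR. AL 1 lay within the CR range. Its log2 fold change of -1.26 (SE 0.41, edgeR adjusted p = 0.131) ranged from -1.51 without AL 1 to -0.95 without AL 2. Fcna, a ficolin of the lectin pathway made by macrophages, had a mean of 1.80 CPM in AL and of 0.478 CPM in CR (-1.90, edgeR adjusted p = 0.151), on 4 to 39 reads per library. C1rl, a relative of C1r, had the highest mean of this role and the smallest difference, with 26.8 CPM in AL and 23.8 CPM in CR (-0.17, from -0.30 without CR 4 to -0.069 without CR 1). The mannose-binding lectins Mbl1 and Mbl2 and their protease Masp1 were at 0 in all 8 libraries.

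Of the 3 tested genes with a higher value in CR (Cfd, Cd59a and Cr1l), Cfd had the largest difference. It encodes factor D (adipsin), the protease that cleaves factor B, and adipocytes are its main source. The gene was at 13.6, 3.55, 3.13 and 5.88 CPM in AL and at 30.0, 19.1, 38.7 and 5.94 CPM in CR. CR 1, CR 2 and CR 3 lay above all AL libraries and CR 4 within their range. The log2 fold change was 1.84 (SE 0.55, edgeR adjusted p = 0.110). The 5 adipocyte markers together were higher in all 4 CR libraries, at 26.1, 42.1, 57.0 and 17.9 CPM in CR against 4.93 to 11.5 CPM in AL, and each of the 4 that were tested had a higher value. Fabp4, the lipid carrier of adipocytes, rose by 2.37 on the log2 scale (edgeR adjusted p = 0.0208, up to 0.0885 with 1 library left out), and Adipoq, adiponectin, had 2.08 (adjusted p = 0.0635). Within CR, CR 4 was lowest for Cfd, for the adipocyte sum and for the parotid sum (17949 CPM). Within AL, AL 4 had the lowest parotid sum (239 CPM) but not the lowest Cfd. The part of fat or parotid tissue in the Cfd level was not tested. Properdin, encoded by Cfp, had a log2 value of -0.48 on means of 1.94 CPM in AL and 1.39 CPM in CR, with a range from -0.63 without AL 4 to -0.063 without AL 3.

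The genes of the terminal pathway were too low to test. None of its 7 genes had enough counts to be tested, and C8a and C8b were at 0 in every library. C9, which forms the pore, was at 0.572 CPM in AL and 0.412 CPM in CR, and C8g at 0.389 and 0.558 CPM. C6 had 8, 1, 9 and 0 counts in AL and 0 in each CR library.

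Regulators that shield host cells were mixed. Of 6 tested, 4 had a lower value and the median was -0.24. Without AL 3, 4 of 6 were again lower and the median was -0.17. Clu, the soluble inhibitor clusterin, had the highest mean, at 44.6 ± 13.3 CPM in AL and 31.9 ± 12.5 CPM in CR (log2 fold change -0.48, edgeR adjusted p = 0.426). Its log2 value ranged from -0.79 without CR 4 (adjusted p = 0.0735) to -0.29 without AL 3. Cd55, which speeds the decay of convertases on the cell surface, was at 0.710 to 1.59 CPM in AL and 0.222 to 0.618 CPM in CR without overlap (-1.22, edgeR adjusted p = 0.290), on 4 to 26 reads. Cd59a, an inhibitor of the membrane attack complex, had a log2 value of 0.45, with a range from 0.29 without AL 2 to 0.59 without CR 3. Cr1l, the rodent regulator Crry, had a log2 value of 0.27, with a range from 0.16 without AL 4 to 0.44 without AL 3.

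All 6 receptors tested had a lower value in CR with all 8 libraries, and 5 of 6 without AL 3, where their median moved from -0.64 to -0.32. None of the 6 was called, where 0.785% of all genes were called lower. Of the 6, 1, Itgax, had an unadjusted p under 0.05, against 8.10% of all genes that were lower at this limit. Itgax, the alpha chain of complement receptor 4 (CD11c) of dendritic cells and some macrophages, was at 4.93, 3.31, 12.4 and 3.55 CPM in AL and at 2.05, 1.42, 2.16 and 0.888 CPM in CR. The groups did not overlap, and AL 3 was again the highest. Its log2 fold change was -1.89 (SE 0.47, edgeR adjusted p = 0.0635), the smallest adjusted p of the 17 genes, and it ranged from -2.09 without AL 2 to -1.27 without AL 3. Cd93, a lectin-like receptor once named for C1q, had the highest mean of this role, with 10.7 CPM in AL and 7.95 CPM in CR (-0.43), and its log2 value ranged from -0.68 without CR 3 to 0.021 without AL 3. C3ar1, the receptor for the C3a fragment, was at 6.46 ± 3.57 and 4.31 ± 0.434 CPM (-0.58, edgeR adjusted p = 0.444), and its log2 value ranged from -0.78 without AL 1 to -0.15 without AL 3.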

How the data were processed

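Reads of 8 LG libraries (4 AL, 4 CR) were trimmed with cutadapt, checked with FastQC, aligned to mm10 with STAR and counted with HTSeq by the authors, who deposited raw counts per gene. They also deposited log2 values, which equal log2 of the RLE-scaled count plus 1 to within 0.000124 and were not used further. The authors computed fold changes and p-values with DESeq2, whereas the main test here was edgeR. Tool versions and the strand setting of counting are not given in the sources used here. Of 24557 rows, 5 with a repeated symbol were dropped. Members and lists were chosen with earlier results of these data known.

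Genes passing filterByExpr (11211 of 16735 counted) were fitted with edgeR 4.0.16 in R 4.3.3 (RLE factors, glmQLFit, glmQLFTest, no covariate) and adjusted by the Benjamini-Hochberg method over all genes tested. Genes were called at an adjusted p under 0.05 if they changed at least 1.5-fold. The SE is the log2 fold change over the square root of F. The biological coefficient of variation was 34.7%, and the test was checked on simulated data. CPM are RLE-scaled, and correlations used log2 CPM with a prior count of 0.5. The limit of 3 counts covers counting error only. Single values were compared with exact permutation tests.

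Named genes were all members, other complement genes with a call or an unadjusted p under 0.05, the gene of highest mean in each role, a few defining markers of each cell type and the 5 genes most like C1q or C3. Cd163, Csf1r, Cfp, Cr1l, Cd59a, C8g, C3ar1, C6 and the lectin pathway genes at 0 were named after their values were seen. The fit was repeated with TMM or upper-quartile scaling, by DESeq2 1.42.0 and by limma 3.58.1 (voom with sample weights), with other count filters, without the 50 most counted genes, with a parotid covariate, with a replicate block and without each library. Positions are from GENCODE vM21 (GRCm38), and promoter windows, found for 4 of the 9 members, are from RefSeq.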

Additional observations from a re-analysis of the deposited data

Results flagged for a closer look

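Of 70 groups of 4 libraries examined, 5 held a library whose gap to the nearest other exceeded the 95% critical share of the group's range by Dixon's criterion, and chance alone gives about 1 in 20 such groups. Cfp was at 3.42 CPM in AL 3 and at 1.32 to 1.62 CPM in the other AL libraries. Itgb2, the shared beta chain of complement receptors 3 and 4, was at 1.08 CPM in AL 1 against 4.04 to 4.46 CPM in the other AL libraries, and at 3.22 CPM in CR 4 against 1.41 to 1.66 CPM in the other CR libraries. The fibroblast markers summed to 287 CPM in AL 1 and to 422 to 444 CPM in the rest of AL. The ratio of summed C1q to summed macrophage markers was 0.609 in AL 3 and 0.568 to 0.569 in AL 1, AL 2 and AL 4. No complement member met this criterion in either diet.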

How the results depend on the processing

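No member was called with TMM or upper-quartile factors, with voom, under the other filters, with the parotid covariate or without any 1 library, and none was called higher in any setting. Members called lower numbered 3 with DESeq2 (C1ra at -1.07, C3 at -1.17 and Serping1 at -0.78, adjusted p 0.0317, 0.0360 and 0.0367). With the replicate block there were 4 (C1qc at -0.66, C1ra at -1.0, C3 at -1.07 and Serping1 at -0.74, adjusted p 0.0481, 0.0294, 0.00672 and 0.0142). The block was not used as the main fit, because the labels tie no mice by number and 1 of the 4 same-number correlations of deviations (0.131, 0.067, 0.220 and 0.429) was under 0.1. Of the AL libraries, 3 correlated best with their own number, and AL 3 did so with CR 1 (0.289). Calls over all genes, 88 lower and 134 higher, became 317 and 385 with DESeq2, 312 and 388 with the block, 160 and 237 with voom, 165 and 271 without a filter, 0 and 4 with the parotid covariate, and 25 to 247 and 35 to 453 with 1 library left out. Other complement genes called, 0 in the main test, numbered 2 with DESeq2, 1 with voom (Cfd), 2 without a filter and 2 with the replicate block (Cfd and Itgax in both), and 0 to 1 with 1 library left out (Cfd without CR 4). C4b reversed to 0.023 without AL 3, in a range of -0.60 to 0.023 with 1 library left out. The direction of the other 8 members held in all 18 alternatives. The cause of these shifts was not tested. Counts of 14 to 56 for C2 and 18 to 144 for Cfb limit their precision.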
